A study of Mus musculus with 12 samples.

Results

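The galectin genes of the mouse heart were followed after acute myocardial infarction (AMI). They were chosen by gene symbol, which gave 8 genes (*Lgals1*, *Lgals2*, *Lgals3*, *Lgals4*, *Lgals7*, *Lgals8*, *Lgals9* and *Lgals12*) of the 53801 genes quantified. Whole hearts of C57BL/6N mice had been sequenced in 3 groups of 4 libraries each, which were a sham-operated group, a group taken 1 day after AMI (day 1 AMI) and a group taken 7 days after it (day 7 AMI). The AMI was made by tying off the left anterior descending coronary artery, with no reperfusion and no drug, and no group of these 12 libraries carried a genetic change. Per the study's methods the mice were male and 10 to 14 weeks old and the libraries of a group were biological replicates. The labels do not tie a sampling day to the sham hearts, and whole hearts mix the infarct with surviving muscle, so a lower share of a cell type and less RNA in each cell of it cannot be told apart.

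Galectins are lectins that bind β-galactoside sugars on glycoproteins and glycolipids. They are made in the cytosol without a signal peptide, leave the cell by an unconventional route, and cross-link glycoproteins at the cell surface and in the matrix. They are known for tuning leukocyte adhesion, macrophage activation and T-cell survival, and galectin-3 in particular is a long-standing blood marker in heart failure and is linked to cardiac fibrosis. *Lgals1*, *Lgals2* and *Lgals7* encode proteins with a single sugar-binding domain, *Lgals3* encodes the chimera type with an extended N-terminal tail, and *Lgals4*, *Lgals8*, *Lgals9* and *Lgals12* encode tandem-repeat proteins with a pair of such domains in 1 chain.

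After AMI the galectins went in different directions. *Lgals3* was 11.0-fold above sham at day 1 and 13.1-fold above sham at day 7, *Lgals9* was 2.84-fold above sham at day 7, and *Lgals4* was 2.96-fold below sham at day 1 and 4.51-fold below sham at day 7. *Lgals8* stayed within a narrow range in all 12 hearts under the main scaling. *Lgals1* was the most abundant galectin in every heart, and its CPM values overlapped between groups in every comparison. *Lgals7* stood at under 1 CPM (counts scaled to the size of the library) in every heart, and *Lgals2* and *Lgals12* had at most 7 counts in any heart.

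Of the 8 genes, 6 passed the filter on low counts and were tested among 15306 genes by the quasi-likelihood test of edgeR, with p-values adjusted over all of these. *Lgals2* and *Lgals12* did not pass. *Lgals7* passed only through the day 7 AMI libraries, where it was highest, so its place among the genes tested is itself tied to that rise. Some genes of the lists used below also lie low in sham and could not have passed on sham hearts alone. Among them are *Krt14*, *Cdh1*, *Tnfrsf9*, the neutrophil markers *Il1r2*, *Trem1* and *Clec4d*, the skeletal muscle marker *Tnnt3* and most T and NK cell markers. Results of such genes, and counts that include them, are a description. To be called, a gene needed a fold change (FC) of at least 2 in either direction, with its false discovery rate (FDR) below 0.05. The 3 comparisons share groups, so their results are not independent of one another. Levels within a gene are given as CPM after TMM normalization, which divides by an effective library size, and levels between genes as TPM, the share of all transcripts, which also divides by transcript length.

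Library depth ran from 23204551 to 32166517 counts, at which 3 counts amount to between 0.0933 and 0.129 CPM. The mitochondrial share of the counts was 17.9% to 27.4% in sham, 12.1% to 15.9% at day 1 and 13.2% to 19.2% at day 7. Lists of marker genes for cell types that a heart could hold were summed in each heart. Cardiomyocyte markers summed to between 44464 and 93450 CPM over the 12 hearts, and every one of the 10 was above 0 in each group, which matches the heart label. Sham replicate 2 stood apart in its erythroid markers, which summed to 4455 CPM against 491 to 1180 CPM in the other sham hearts, and it was also the sham heart with the highest *Lgals3*, *Lgals4*, *Lgals7* and *Lgals9*. Among sham hearts it had the highest macrophage and neutrophil sums (549 and 59.8 CPM) and the lowest cardiomyocyte sum (77664 CPM). Sham replicate 1 followed with 499 and 34.4 CPM of macrophage and neutrophil markers. Replicate 3 had 384 and 4.75 CPM, and replicate 4 had 354 and 4.02 CPM. Of 5 erythroid markers tested, 3 were called lower than sham at day 1 (2.98% of all genes) and 3 at day 7 (5.88%). Day 7 AMI replicate 1 had the highest sums of fibroblast and macrophage markers. Among the remaining lists, endothelial markers had 1 of 8 called higher at day 7 than at day 1 (8.55% of all genes). Against sham, 4 of them passed the FDR threshold at day 1 and 6 at day 7, all at an FC under 2. At any FC, 41.8% and 59.3% of all genes passed it. Smooth muscle and mural markers had 1 of 6 called higher than sham at day 1 and 2 of 6 at day 7. For this list and those that follow, the shares of all genes called higher were 7.79% and 15.3% at these days. B-cell markers had 1 of 4 called higher than sham at day 7. Mesothelial markers had 1 of 5 higher and 1 of 5 lower than sham at day 1, and 3 of 5 higher at day 7. Skeletal muscle markers had 1 of the 2 tested called higher than sham at each day. Lists this short were not tested against the shares of all genes.

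The promoters of *Lgals3*, *Lgals9* and *Lgals4*, the 3 galectins whose day 7 hearts did not overlap sham, show what lies at a RefSeq start of each. Each window holds 300 bases, 250 before and 50 after the start that RefSeq gives on GRCm38.p6, written 5′ to 3′ on the strand of the gene. Capitals mark matches to the motifs searched on both strands, which were AP-1 with the letters TGANTCA, the interferon-stimulated response element ISRE, which is GAAA followed by any 2 bases and by GAAA again, ETS with the letters GAGGAA, the GATA motif with the letters AGATAA, MCAT with the letters CATTCC, the TATA box with the letters TATAAA and Sp1 with the letters GGGCGG. None of the matches shown overlap one another.
Lgals3, chr14:47373610-47373909, plus strand: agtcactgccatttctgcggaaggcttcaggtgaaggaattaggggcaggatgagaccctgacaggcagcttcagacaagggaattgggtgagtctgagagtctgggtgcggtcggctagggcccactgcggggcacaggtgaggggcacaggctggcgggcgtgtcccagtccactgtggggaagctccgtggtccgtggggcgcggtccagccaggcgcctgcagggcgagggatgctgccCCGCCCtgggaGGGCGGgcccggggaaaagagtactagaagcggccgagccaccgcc
Lgals9, chr11:78984875-78985174, minus strand: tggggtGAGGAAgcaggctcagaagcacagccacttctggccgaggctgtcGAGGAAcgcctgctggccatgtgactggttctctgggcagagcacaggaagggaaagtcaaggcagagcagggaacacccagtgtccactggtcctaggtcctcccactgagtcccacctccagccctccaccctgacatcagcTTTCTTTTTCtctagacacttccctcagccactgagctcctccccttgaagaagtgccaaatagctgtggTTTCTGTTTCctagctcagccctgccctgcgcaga
Lgals4, chr7:28833544-28833843, plus strand: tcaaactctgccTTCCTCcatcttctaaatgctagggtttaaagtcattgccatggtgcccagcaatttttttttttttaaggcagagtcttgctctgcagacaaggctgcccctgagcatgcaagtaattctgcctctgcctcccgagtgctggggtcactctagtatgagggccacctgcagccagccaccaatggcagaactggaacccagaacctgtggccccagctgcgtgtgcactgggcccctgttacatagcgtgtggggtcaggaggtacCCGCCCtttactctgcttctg

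The *Lgals9* window held 2 ISRE matches, both on the reverse strand of the window as printed, at positions -55 to -46 and 15 to 24, where position 0 is the first base after the 250 upstream bases. At least 1 ISRE match is present in 3.44% of the 32851 promoter windows in the RefSeq table and at least 2 matches in 0.225%. The same window held 2 ETS matches (28.3% of windows hold 1 or more, 4.82% hold 2 or more). The *Lgals3* window held 2 Sp1 matches, at -7 to -2 and 4 to 9, a letter pattern found at least once in 35.7% of windows and at least 2 times in 19.5%. This *Lgals3* window lies inside the GENCODE span of the gene given below, and not at the outermost start annotated there. The *Lgals4* window held 1 ETS match and 1 Sp1 match. This window ends before the GENCODE span of *Lgals4* given below begins, so its RefSeq start also differs from the start annotated there. Of the remaining motifs, AP-1 is in 7.81% of windows, GATA in 11.2%, MCAT in 14.7% and the TATA box in 13.6%, and none of these 4 patterns is in any of the 3 windows shown. Windows of *Lgals2*, *Lgals7* and *Lgals8* were also searched and held 1 GATA match, 1 Sp1 match and 0 matches, in that order. Windows for *Lgals1* and *Lgals12* were not used here. A match describes letters only, and binding was not measured.

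In the GENCODE M21 annotation of GRCm38, all 8 genes are protein coding. *Lgals3* (ENSMUSG00000050335) spans chr14:47367751-47386160 on the plus strand, *Lgals9* (ENSMUSG00000001123) spans chr11:78962974-78984946 on the minus strand, and *Lgals1* (ENSMUSG00000068220) spans chr15:78926725-78930465 on the plus strand. *Lgals4* (ENSMUSG00000053964) at chr7:28833854-28841708 and *Lgals7* (ENSMUSG00000053522) at chr7:28863853-28866284 both lie on the plus strand of chromosome 7. *Lgals8* (ENSMUSG00000057554) spans chr13:12439415-12464944 on the minus strand. *Lgals2* (ENSMUSG00000043501) spans chr15:78850860-78855529 on the minus strand, and *Lgals12* (ENSMUSG00000024972) spans chr19:7596660-7607193 on the minus strand. No stretch of 75 exonic bases of *Lgals1*, *Lgals2*, *Lgals3*, *Lgals4*, *Lgals7*, *Lgals9* or *Lgals12* occurs in another annotated gene. For *Lgals8*, 2.53% of such stretches are shared with *Heatr1* or AC107765.2, and 4.20% of its exonic bases lie opposite exons of *Heatr1*. For *Lgals2*, 6.42% of exonic bases lie opposite *Cdc42ep1*. The strand counted is not given in the sources used here, so these reads may be split between the partners.

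The first question was which galectins differed 1 day after AMI. *Lgals7* is left out of the counts in this paragraph, since its day 7 level admitted it to the test, and is described on its own further on. Of the other 5 galectins tested, 2 were called between day 1 AMI and sham, *Lgals3* higher and *Lgals4* lower, beside 10.8% of all genes tested (7.79% called higher and 2.98% called lower). Hearts of the groups did not overlap for these 2 genes, where 36.7% of all genes did not overlap. At any FC, 3 of the 5 passed the FDR threshold, beside 41.8% of all genes. At day 7 against sham, 3 of the 5 were called (21.2% of all genes), *Lgals3* and *Lgals9* higher (15.3%) and *Lgals4* lower (5.88%), and 4 of the 5 passed the FDR threshold at any FC (59.3%). Between day 7 and day 1, 1 of the 5, *Lgals9*, was called, and it was higher at day 7 (11.2% of all genes were called, 8.55% in that direction). *Lgals4* was lower there at an FC under 2 (2.69% of all genes were called lower), and 2 of the 5 passed the FDR threshold at any FC (47%). Hearts of the 2 groups did not overlap for 3 of the 5 genes at day 7 against sham (53% of all genes) and for 1 of the 5 at day 7 against day 1 (44.5%).

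**Figure D1:**
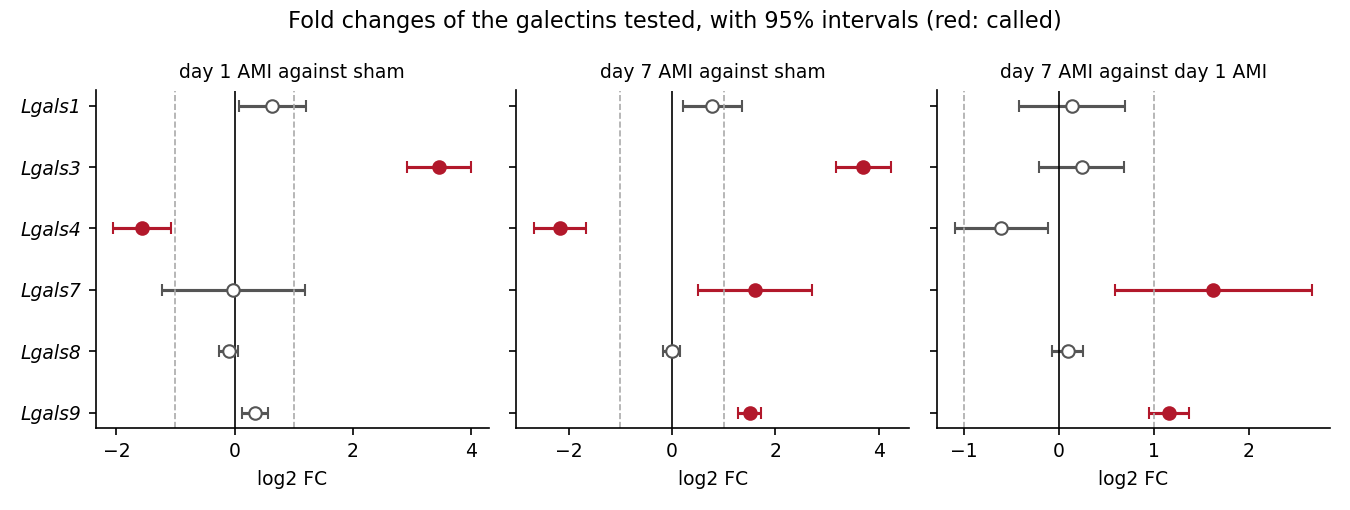
Log2 FC of the 6 galectins tested in the 3 comparisons, with 95% intervals from the edgeR fit. Filled red points were called and open grey points were not, though *Lgals7* entered the test through its day 7 level and its points are a description, and the dashed lines mark an FC of 2 in either direction. *Lgals3* lies at 3.46 and 3.71 against sham, *Lgals4* at -1.57 and -2.17, and *Lgals8* near 0 throughout, while its position depends on the scaling.

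*Lgals3* encodes galectin-3, first known as the macrophage surface antigen Mac-2. In sham hearts it stood at 4.07, 5.09, 1.94 and 2.63 CPM. One day after AMI the 4 hearts had 38.8, 50.8, 31.2 and 31.9 CPM, and at day 7 they had 55.5, 45.4, 37.6 and 42.2 CPM. Every infarcted heart was above every sham heart, and the ranges of day 1 and day 7 overlapped. The log2 FC of *Lgals3* was 3.46 ± 0.251 (SE) at day 1 against sham (adjusted p = 1.87e-06) and 3.71 ± 0.252 at day 7 against sham (adjusted p = 6.78e-08). Between day 7 and day 1 the log2 FC was 0.24, with a 95% interval of -0.21 to 0.69 (adjusted p = 0.361). Without sham replicate 2 the log2 FCs against sham were 3.74 and 3.98.

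Macrophage markers were also higher after AMI. Markers of monocytes and macrophages (14 genes, none at 0) summed to between 354 and 549 CPM in sham, 666 and 975 CPM in day 1 AMI and 1029 and 1595 CPM in day 7 AMI. Of the 14 markers, 7 were called higher than sham at day 1 and 11 at day 7, and 1 was called higher at day 7 than at day 1. The shares of all genes called higher in these comparisons were 7.79%, 15.3% and 8.55%. Neutrophil markers (10 genes, none at 0) summed to 4.02 to 59.8 CPM in sham, 47.5 to 161 CPM at day 1 and 13.6 to 46.4 CPM at day 7. At day 1, 5 of the 10 were called higher than sham (7.79% of all genes). At day 7, 2 were called higher (15.3%) and 1 lower (5.88%). Between day 7 and day 1, 6 were called lower (2.69%). These counts are a description, since *Il1r2*, *Trem1* and *Clec4d* (0.10, 0.09 and 0.26 CPM on average in sham) passed the filter through infarcted hearts. As a measure of whether *Lgals3* moved further than the macrophage list, the mean log2 CPM of the 14 markers was subtracted from that of *Lgals3* in each heart. This difference was -2.14 ± 0.326 in sham (SD, n = 4), 0.05 ± 0.166 at day 1 and -0.03 ± 0.30 at day 7. It was thus larger by 2.19 at day 1 and by 2.11 at day 7 than in sham, with no overlap of hearts (exact permutation p = 0.0286 for each, adjusted p = 0.0429 over 12 such tests, which were chosen after the values were seen). Here 0.0286 is the smallest p that 4 hearts against 4 can give. Between the 2 AMI groups it differed by -0.08 (exact permutation p = 0.686). The 14 markers spread widely around their mean. At day 1 against sham their log2 FCs ran from -0.05 (*Cd163*) to 3.46 (*Ccr2*), where *Lgals3* had 3.46. At day 7 against sham they ran from -0.69 (*Cd163*) to 3.61 (*Mpeg1*), where *Lgals3* had 3.71. *Lgals3* thus moved further than the mean of the list, but about as far as its most raised markers.

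**Figure D2:**
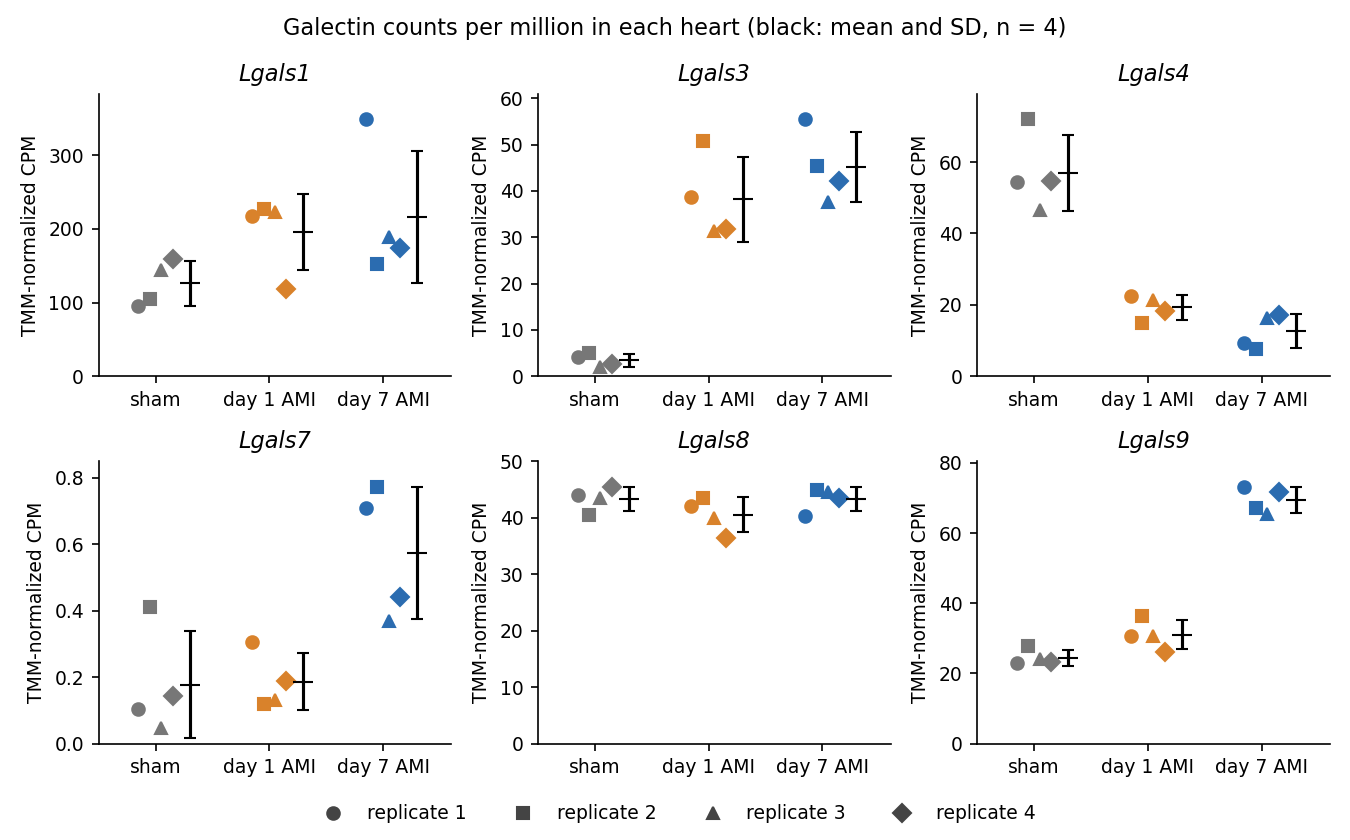
CPM of each galectin tested in each of the 12 hearts, with 1 panel per gene, a linear axis from 0, and the mean and SD (n = 4) of each group in black beside the points. Marker shapes give the replicate number, which does not pair hearts across groups. *Lgals3* and *Lgals9* are highest at day 7 (45.2 and 69.4 CPM on average), *Lgals4* is highest in sham (57.0 CPM), and *Lgals7* lies below 1 CPM.

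*Lgals9* encodes galectin-9, a ligand of the T-cell and myeloid receptor TIM-3 and known as an interferon-inducible gene. Its 4 sham hearts had 22.9, 27.8, 24.1 and 23.1 CPM and the day 1 hearts 30.8, 36.5, 30.8 and 26.2 CPM. At day 7 the values were 73.2, 67.1, 65.6 and 71.8 CPM. All day 7 hearts were above all others, whereas day 1 and sham overlapped through day 1 replicate 4 and sham replicate 2. The log2 FC of *Lgals9* was 0.34 ± 0.10 (SE) at day 1 against sham, under the FC minimum (adjusted p = 0.0134), 1.5 ± 0.101 at day 7 against sham (adjusted p = 6.08e-08) and 1.16 ± 0.0991 at day 7 against day 1 (adjusted p = 1.1e-06). Without day 1 AMI replicate 2 the day 1 difference was 0.26 (adjusted p = 0.050), at the edge of the FDR threshold.

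*Lgals3* and *Lgals9* were then compared within each heart. The log2 CPM of *Lgals9* was subtracted from that of *Lgals3*, giving -2.90 ± 0.551 in sham (SD, n = 4), 0.28 ± 0.191 at day 1 and -0.63 ± 0.188 at day 7. The difference was larger by 3.17 at day 1 and by 2.26 at day 7 than in sham, and smaller at day 7 than at day 1 (-0.91). Hearts of the groups did not overlap in any of these 3 comparisons, and each reached the smallest exact permutation p of 0.0286, which adjusted over 9 tests was 0.0514 and missed 0.05. Relative to the mean of the macrophage markers, *Lgals9* changed by -0.99 (log2) from sham to day 1 and by 0.83 from day 1 to day 7, without overlap of hearts (exact permutation p = 0.0286, adjusted p = 0.0429 for both). At day 7 against sham this relative level differed by -0.15 (exact permutation p = 0.457). T and NK cell markers (10 genes, 8 tested, none at 0 in a whole group) summed to 2.42 to 3.35 CPM in sham, 3.44 to 10.9 CPM at day 1 and 8.65 to 19.8 CPM at day 7. Of the 8 tested, 3 were called higher than sham at day 1 and 7 at day 7, beside 7.79% and 15.3% of all genes. These counts are a description, since markers such as *Cd3e* and *Lck* (0.11 and 0.20 CPM on average in sham) passed the filter through infarcted hearts. The part of T and NK cells in the *Lgals9* values was not tested.

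*Lgals4* encodes galectin-4, best known from the epithelium of the gut. It was the only galectin called lower than sham. The sham hearts had 54.5, 72.0, 46.7 and 54.7 CPM, the day 1 hearts 22.5, 15.0, 21.4 and 18.2 CPM, and the day 7 hearts 9.37, 7.73, 16.4 and 17.1 CPM. Every infarcted heart was below every sham heart, and day 7 replicates 3 and 4 lay within the range of day 1. The log2 FC was -1.57 ± 0.226 (SE) at day 1 against sham (adjusted p = 0.000148) and -2.17 ± 0.233 at day 7 against sham (adjusted p = 2.86e-06). Between day 7 and day 1 it was -0.61 ± 0.229, under the FC minimum (adjusted p = 0.0415). Leaving out day 7 replicate 2 moved that last adjusted p to 0.114. Without sham replicate 2, the heart with the most *Lgals4*, the log2 FCs against sham were -1.43 and -2.04.

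*Lgals4* fell further than the cardiomyocyte markers did. Those 10 genes, none at 0, summed to 77664 to 93450 CPM in sham, 51369 to 63294 CPM in day 1 AMI and 44464 to 51330 CPM in day 7 AMI. At day 1, 0 of the 10 were called, and 8 passed the FDR threshold below the FC minimum, while at day 7, 6 were called lower than sham. Among all genes, 10.8% were called at day 1 and 41.8% passed the FDR threshold at any FC, and 5.88% were called lower at day 7. The median log2 FC of the list was -0.49 at day 1 and -1.07 at day 7. The mean log2 CPM of the markers was subtracted from that of *Lgals4*, and the result changed by -1.06 at day 1 (-7.86 against -6.80 in sham) and by -1.33 at day 7 (-8.13 against -6.80). Hearts of the groups did not overlap in either case (exact permutation p = 0.0286, adjusted p = 0.0429 for both), and the 2 AMI groups differed by -0.27 (exact permutation p = 0.400). Markers of epithelium and keratinocytes moved the other way, from 3.59 to 7.56 CPM in sham to 11.9 to 27.7 CPM at day 1 and 9.46 to 14.6 CPM at day 7. Of the 9 epithelial genes 6 were tested. At day 1, 6 were called higher than sham (7.79% of all genes), and at day 7, 2 were (15.3%). Between day 7 and day 1, 2 were called lower (2.69%), and *Krt5* and *Krt15* were at 0 in every group. These counts are a description, since *Krt14* and *Cdh1* could not have passed the filter on sham hearts alone.

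**Figure D3:**
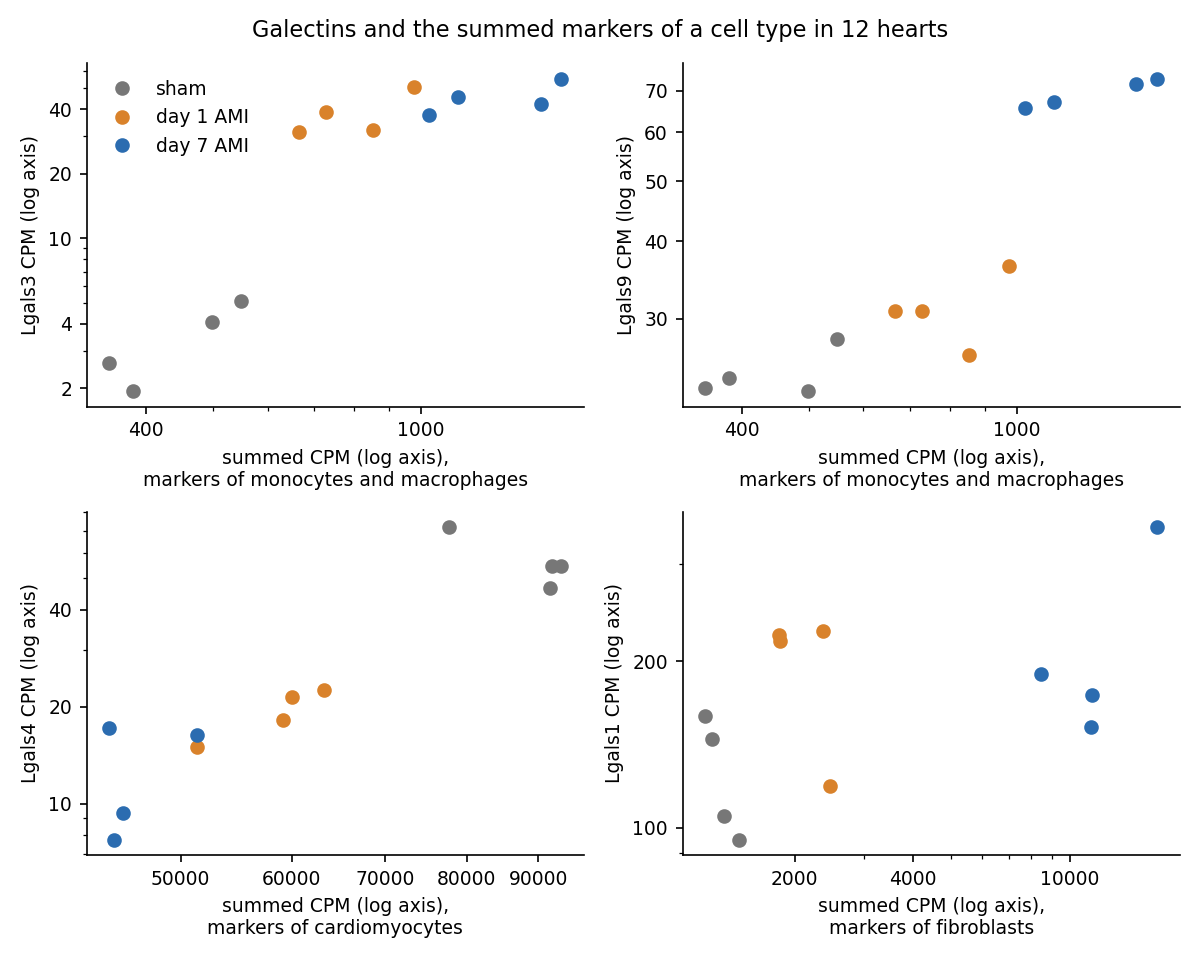
Each point is 1 heart, with the CPM of a galectin on the vertical log axis and the summed CPM of a marker list on the horizontal log axis, for *Lgals3* and *Lgals9* against monocyte and macrophage markers, *Lgals4* against cardiomyocyte markers and *Lgals1* against fibroblast markers. Day 1 and day 7 hearts sit at similar *Lgals3*, whereas *Lgals9* steps up at day 7, and the fibroblast sums rise to between 8458 and 16703 CPM at day 7 while 3 of the 4 *Lgals1* values stay below 200.

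*Lgals1* encodes galectin-1, a widely expressed galectin of stroma, smooth muscle and endothelium. Sham hearts had 95.1, 105, 144 and 159 CPM. The day 1 hearts had 217, 226, 223 and 119 CPM, and the day 7 hearts had 349, 152, 189 and 173 CPM. Day 1 replicate 4 lay within the sham range, day 7 replicate 2 lay below sham replicate 4, and the ranges of the AMI groups overlapped too. In TPM the day 7 hearts (449 to 1060) lay above the sham hearts (180 to 318), on a scale where the median of all genes also rose. Day 7 replicate 1 lay far above the other day 7 hearts. The log2 FC was 0.64 ± 0.264 (SE) at day 1 against sham (adjusted p = 0.0647), 0.78 ± 0.264 at day 7 against sham (adjusted p = 0.0200, under the FC minimum) and 0.14 ± 0.262 at day 7 against day 1 (adjusted p = 0.691). Without day 1 replicate 4 the day 1 value was 0.82 (adjusted p = 0.0174). The day 7 value was 0.45 without day 7 replicate 1 (adjusted p = 0.0946), 0.66 without sham replicate 1 (adjusted p = 0.0645) and 0.70 without sham replicate 2 (adjusted p = 0.0543).

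By day 7 the fibroblast list (10 genes, none at 0) changed more on average than *Lgals1* did, though not in every marker. Its sum was 1183 to 1442 CPM in sham, 1826 to 2453 CPM at day 1 and 8458 to 16703 CPM at day 7. Of the 10 markers, 4 were called higher than sham at day 1, 7 at day 7, and 8 higher at day 7 than at day 1. Beside these stand 7.79%, 15.3% and 8.55% of all genes. The list was uneven at day 7 against sham. *Dcn* (log2 FC 0.36), *Dpt* (0.52) and *Pdgfra* (0.61) changed less than *Lgals1* (0.78), and the others changed more, up to 5.99 for *Postn*. The log2 CPM of *Lgals1* above the mean of these markers was 0.90 ± 0.425 in sham (SD, n = 4), 0.91 ± 0.503 at day 1 and -0.99 ± 0.460 at day 7. From sham to day 7 it fell by 1.88 and from day 1 to day 7 it fell by 1.90, with no overlap of hearts (exact permutation p = 0.0286, adjusted p = 0.0429 for both). Day 7 replicate 1, the heart with the most *Lgals1*, also had the highest fibroblast sum. Between *Lgals1* and *Lgals9* the per-heart difference changed by 0.29 (exact permutation p = 0.229), -0.77 (exact permutation p = 0.0857) and -1.06 (exact permutation p = 0.0571) in the comparisons of day 1 with sham, day 7 with sham and day 7 with day 1. Between *Lgals3* and *Lgals1* it changed by 2.89 and 3.04 against sham at day 1 and day 7 (exact permutation p = 0.0286, adjusted p = 0.0514 for both) and by 0.15 between the AMI groups (exact permutation p = 0.600).

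*Lgals8* encodes galectin-8, which binds sugars exposed on damaged vesicles inside the cell. Sham hearts had 44.0, 40.5, 43.5 and 45.5 CPM, day 1 hearts 42.2, 43.5, 40.0 and 36.4 CPM, and day 7 hearts 40.3, 45.0, 44.6 and 43.4 CPM. All 3 groups overlapped. The 95% interval of the log2 FC was -0.26 to 0.06 at day 1 against sham (adjusted p = 0.320), -0.16 to 0.16 at day 7 against sham (adjusted p = 0.986) and -0.07 to 0.26 at day 7 against day 1 (adjusted p = 0.314). The value depends on the scaling: with library sizes alone the log2 FC at day 7 against sham was 0.40 (adjusted p = 0.000463), in a fit where the median of all genes itself moved to 0.43. Relative to that median *Lgals8* lay close to the middle of all genes under both scalings.

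*Lgals7* encodes galectin-7, known from stratified epithelia such as skin. Its counts were 2, 10, 1 and 3 in sham, 8, 4, 4 and 6 at day 1 and 23, 20, 10 and 13 at day 7. In CPM these are 0.10, 0.41, 0.05 and 0.14 in sham, 0.31, 0.12, 0.13 and 0.19 at day 1, and 0.71, 0.77, 0.37 and 0.44 at day 7. Day 7 hearts were above all day 1 hearts but overlapped sham through sham replicate 2. As a description, the log2 FC was 1.61 ± 0.514 (SE) at day 7 against sham and 1.63 ± 0.485 at day 7 against day 1. No p-value is given for either, because the day 7 counts themselves admitted the gene to the test. At day 1 against sham the 95% interval was -1.23 to 1.19. Without sham replicate 2 the value at day 7 against sham was 2.48. Several of these counts are at or near the floor of 3, so the size of the difference is poorly fixed. In the epithelial list given above, the keratinocyte marker *Krt14* averaged 0.0932 CPM in sham, 0.591 CPM at day 1 and 0.332 CPM at day 7. As a description, its log2 FC was 2.57 at day 1 against sham. No p-value is given, because infarcted hearts admitted *Krt14* to the test. The keratinocyte genes *Krt5* and *Krt15* were at 0 in every group. The part of such cells in the *Lgals7* counts was not tested.

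*Lgals2*, known from the gastrointestinal tract, had counts of 0, 0, 4 and 0 in sham, 1, 0, 0 and 0 in day 1 AMI and 0, 0, 1 and 2 in day 7 AMI. *Lgals12*, known from fat cells, had counts of 1, 2, 1 and 2 in sham, 6, 0, 0 and 0 in day 1 AMI and 0, 7, 4 and 2 in day 7 AMI. Most hearts lay at or under the floor of 3 counts for both genes, so neither an FC nor an absence can be stated at this depth. Adipocyte markers summed to 229 to 286 CPM in sham, 155 to 183 CPM at day 1 and 69.6 to 111 CPM at day 7, but this sum was almost wholly *Plin4*, at 244, 163 and 84.6 CPM on average. Of the 5 of 7 markers tested, *Plin4* was the 1 called lower than sham at day 7, beside 5.88% of all genes. *Adipoq*, *Plin1* and *Cidec* stayed under 1 CPM on average in each group. Of 3 further genes of galectin-like sequence listed, *Lgals6* was not analysed here and *Grifin* had a count of 0 in all hearts. *Lgalsl*, a galectin-related gene, was not called in any comparison, with log2 FCs of 0.03, -0.08 and -0.11.

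Between genes, TPM gave the order of the family in each group. In sham hearts *Lgals1* led with 260 ± 66.2 TPM (SD, n = 4), followed by *Lgals4* with 72.8 ± 16.6, *Lgals8* with 26.2 ± 4.00, *Lgals9* with 21.4 ± 3.23, *Lgals3* with 4.92 ± 1.56 and *Lgals7* with 0.435 ± 0.383 TPM. Only *Lgals8* and *Lgals9* among these neighbours overlapped. At day 1 *Lgals1* stood at 501 ± 123 TPM and *Lgals3*, at 65.0 ± 15.2 TPM, had passed *Lgals9* (33.7 ± 4.25), *Lgals4* (31.8 ± 6.81) and *Lgals8* (30.4 ± 2.15), whose hearts overlapped with one another. At day 7 *Lgals1* stood at 650 ± 277 TPM, *Lgals3* and *Lgals9* were indistinguishable at 88.8 ± 13.5 and 88.7 ± 7.44 TPM, each higher in 2 of 4 hearts, and *Lgals8* (40.0 ± 3.92) exceeded *Lgals4* (24.9 ± 9.97) in 4 of 4 hearts with overlapping ranges. *Lgals7* reached 0.522 ± 0.239 TPM at day 1 and 2.02 ± 0.472 TPM at day 7.

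The ratio of *Lgals3* to *Lgals4* in TPM was 0.0669 ± 0.0102 in sham, 2.20 ± 1.1 at day 1 and 4.12 ± 1.98 at day 7. *Lgals3* was thus below *Lgals4* in all 4 sham hearts and above it in all 8 infarcted hearts. Of the summed TPM of the 8 genes, *Lgals1* held 66.7%, 75% and 71.2% on average in sham, day 1 and day 7. The share of *Lgals3* was 1.33%, 9.93% and 10.3%, that of *Lgals4* was 19.3%, 5.02% and 3.01%, and that of *Lgals9* was 5.64%, 5.19% and 10.5%. The summed TPM was 386 ± 68.4 in sham, 663 ± 133 at day 1 and 895 ± 287 at day 7. On the scale of log2(TPM + 1) the median of all genes was itself 0.23 above sham at day 1 and 0.44 at day 7, so these sums do not measure a change of the galectins alone. The shares are a description, and no test was made of them.

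**Figure D4:**
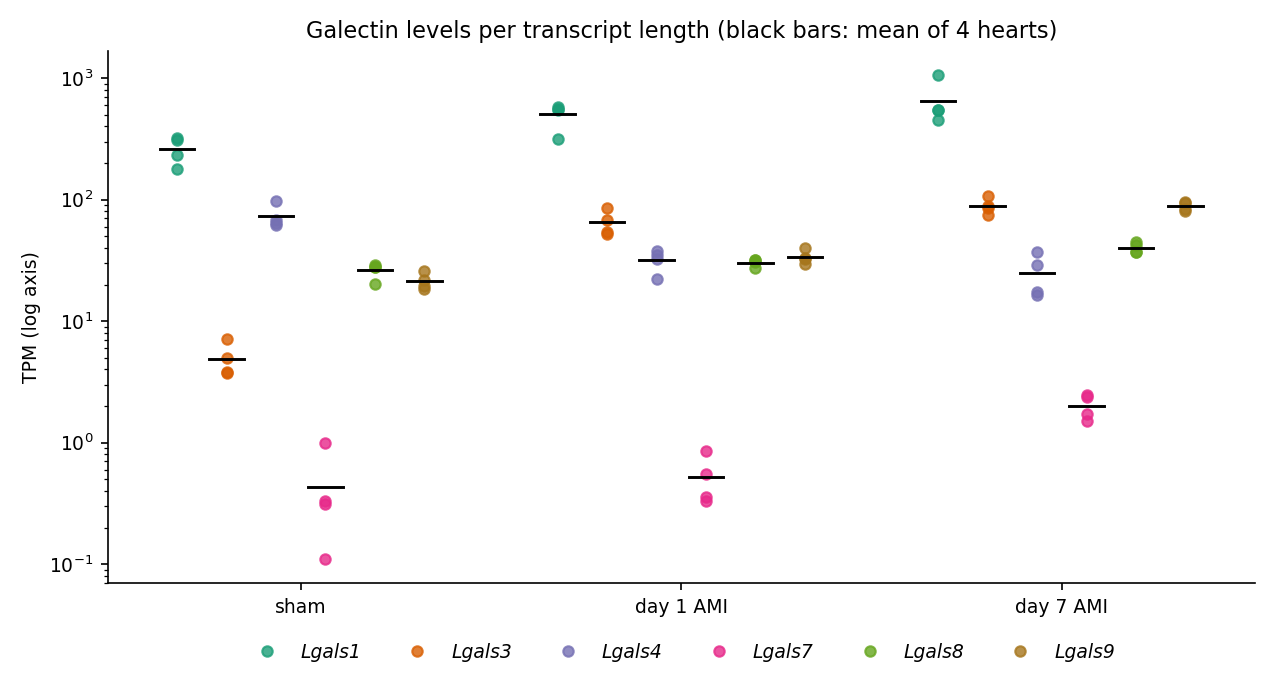
TPM of the 6 galectins tested in each of the 12 hearts on a log axis, grouped by condition, with a black bar at the mean of 4 hearts. *Lgals1* stays on top in every group, *Lgals3* rises from the fifth place in sham to the second at day 1, and *Lgals4* drops from the second place to the fifth by day 7.

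The genes whose hearts followed each galectin most closely were found by the root mean square difference of centred log2 CPM over the 12 hearts, where a smaller value means a closer course. Nearest to *Lgals3* were *Serpinb1a* (0.367), a leukocyte protease inhibitor, *Itgax* (0.375), which encodes CD11c, and *Il6* (0.412). *Il6* averaged 0.0716 CPM in sham, under the floor of 3 counts, and passed the filter through infarcted hearts. Nearest to *Lgals9* were *Hjurp* (0.107), *Pcolce* (0.112), an enhancer of procollagen processing, and *Anxa3* (0.124). *Lgals4* lay nearest to *Poln* (0.290), *Cacna1s* (0.303), the calcium channel subunit of skeletal muscle, and the kinase gene *Wnk2* (0.314). *Poln* averaged 0.311 CPM at day 1 and 0.259 CPM at day 7, and passed the filter through sham hearts. *Lgals1* lay nearest to *Pdlim1* (0.247), *Tmem97* (0.249) and *Osbpl5* (0.254), and *Lgals8* to *Smg6* (0.0520), *Fbxo38* (0.0541) and *Wdr26* (0.0558). *Lgals7* lay nearest to *Pcdhgc5* (0.348), *Ephb6* (0.365) and *Kif24* (0.376). These values describe the same 12 hearts, share their libraries and depth, and carry no test.

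The receptors and carriers that galectins bind were followed as a list of 24 genes, of which 22 were tested. *Calcoco2* was at 0 in every heart and *Pdcd1* did not pass the filter. At day 1 against sham 10 of the 22 were called higher and 0 lower (7.79% and 2.98% of all genes), and at day 7 against sham 11 were called higher and 0 lower (15.3% and 5.88%). The median log2 FC of the list was 0.85 and 1.06 at these days, where that of all genes tested was -0.01 and 0.03. The largest changes at day 7 against sham were in *Fn1*, which encodes the matrix glycoprotein fibronectin (4.69, adjusted p = 1.51e-07), *Trem2*, a macrophage lipid receptor (3.29), *Havcr2*, which encodes TIM-3 (2.94), *Ptprc*, which encodes the leukocyte phosphatase CD45 (2.25), *Spn*, which encodes CD43 (2.09), and the hyaluronan receptor gene *Cd44* (1.89). At day 1 against sham *Cd44* stood at 2.28, *Havcr2* at 2.17, *Fn1* at 2.02, *Trem2* at 1.86, *Ptprc* at 1.56 and *Spn*, which was not called, at 0.55 (adjusted p = 0.155). Apart from *Tnfrsf9*, the largest called value at day 1 was that of *Itgam*, which encodes CD11b (adjusted p = 6.1e-05). As a description, *Tnfrsf9*, which encodes 4-1BB, had a log2 FC of 3.26 at day 1 against sham. No p-value is given for it, because infarcted hearts admitted *Tnfrsf9* to the test. The 10 partners called higher at day 1 include *Tnfrsf9*, so that count is a description too.

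Between day 7 and day 1, 5 of the 22 partners were called higher and 2 lower (8.55% and 2.69% of all genes), with a list median of 0.16 against 0.02 for all genes. Those called higher were *Fn1* (2.67), *Spn* (1.54), *Trem2* (1.42), *Lag3* (1.14) and *Lgals3bp* (1.01), which encodes the secreted galectin-3 binding protein, and those called lower were *Itgam* (-1.07) and *Tnfrsf9* (-1.73). *Lag3*, *Lgals3bp*, *Itgam* and *Tnfrsf9* are named after their values were seen. Infarcted hearts admitted *Tnfrsf9* to the test, so its call here is also a description. *Havcr2*, *Ptprc*, *Spn*, *Trem2* and *Itgam* are leukocyte genes, and the macrophage sums given above rose in the same hearts. Their part in these values was not tested.

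**Figure D5:**
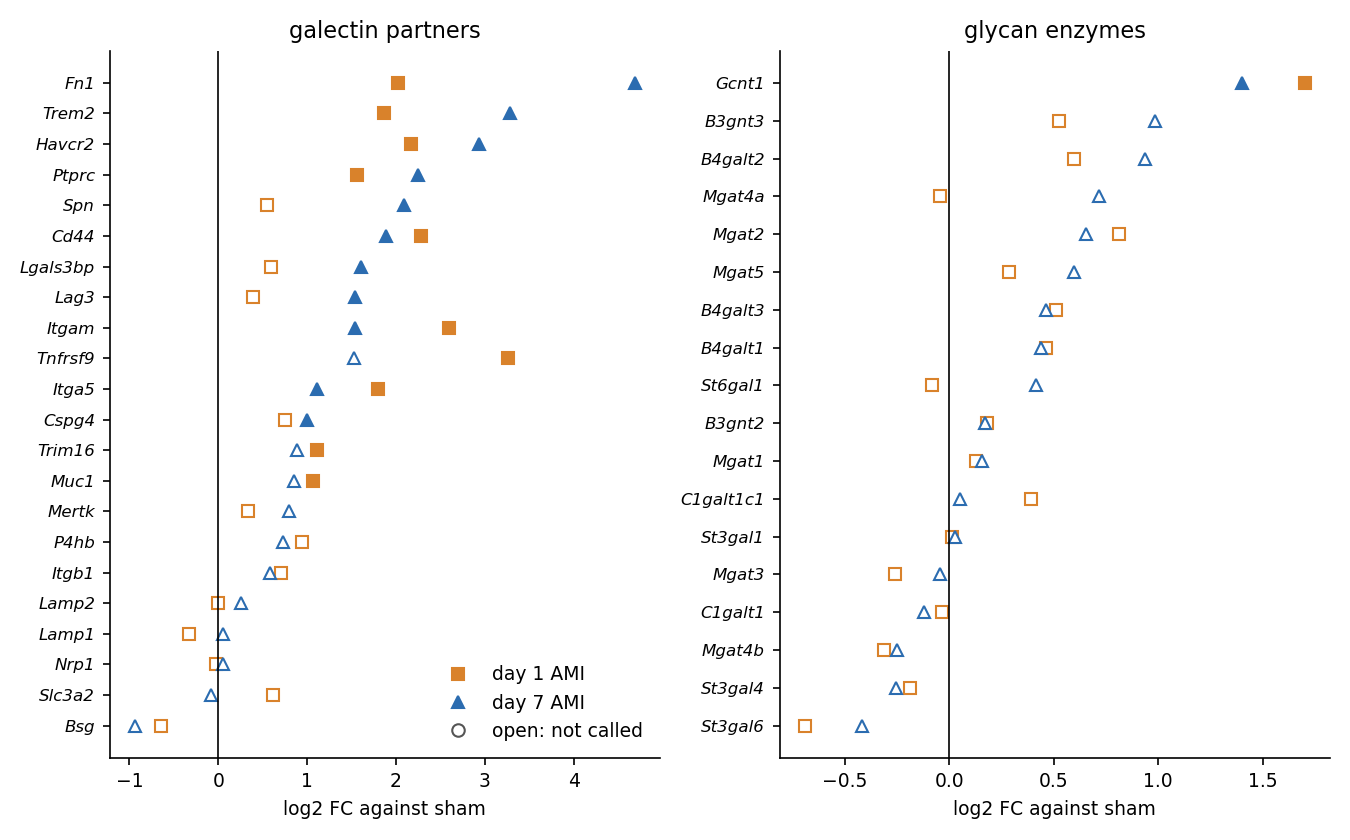
Log2 FC against sham at day 1 (orange squares) and day 7 (blue triangles) for the 22 galectin partners and 18 glycan enzymes tested, ordered by the day 7 value, with open symbols for genes not called. *Fn1* reaches 4.69 at day 7, and *Gcnt1* is the only enzyme with filled symbols.

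Enzymes that build or modify the sugars of glycoproteins were followed as a list of 18 genes, with no test of the list as a whole. All 18 glycan enzymes listed were tested, and 1 was called higher than sham at each day, beside the 7.79% and 15.3% of all genes called higher. It was *Gcnt1*, which starts the core 2 branch of O-glycans, with a log2 FC of 1.70 at day 1 (adjusted p = 1.87e-05) and 1.4 at day 7 (adjusted p = 1.12e-05). At any FC, 9 of the 18 passed the FDR threshold at day 1 and 12 at day 7 against sham, beside 41.8% and 59.3% of all genes. Between day 7 and day 1 edgeR called 0 of the 18, and 5 passed the FDR threshold below the FC minimum, where 47% of all genes passed at any FC. The list median was 0.16 at day 1 and 0.29 at day 7 against sham and 0.02 between the AMI groups. With library sizes in place of TMM scaling, 6 of the enzymes were called at day 7 against sham, in the fit in which all genes shifted upward by a median of 0.43.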

How the data were processed

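Hearts of 12 mice were sequenced in 3 groups of 4, assigned by their labels. The authors aligned 150-bp paired-end reads with STAR 2.4.0j to the mouse reference (mm10, GRCm38) and quantified genes with RSEM, per the labels and methods. The authors deposited raw counts, whole numbers per gene without normalization, and TPM per gene from RSEM. The tool behind the raw counts and the strand counted are not given in the sources used here.

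The counts were fitted with edgeR 4.0.16 in R 4.3.3 (TMM normalization, filterByExpr, quasi-likelihood test, 1 fit of 3 groups). Calls needed an FC of at least 2 and an FDR below 0.05, adjusted by Benjamini-Hochberg across 15306 genes. The SE is the one implied by the quasi-likelihood F statistic, and the prior count behind log2 CPM was 2. Values of 1 gene were compared by exact two-sided permutation of 4 hearts against 4. Floors of 3 counts cover counting error only. Members, marker lists, partners, enzymes and motifs were chosen with earlier results of these data known. Genes named are the galectins, up to 6 partners or enzymes called, by largest log2 FC at day 7 against sham, and the 3 genes nearest to each galectin tested. The scripts were tested on simulated data. The alternatives were DESeq2 1.42.0, limma 3.58.1 (TPM after adding 1 or 0.1, on the log2 scale), RLE size factors, library sizes alone, no filter, no FC minimum, only the groups compared, a replicate block and each heart left out. Libraries of a group differed by more than sampling noise (chi-square over its degrees of freedom of 9.41 or more).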

Additional observations from a re-analysis of the deposited data

Results flagged for a closer look

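Each galectin tested was searched for a heart far from the others of its group, in CPM and in TPM over 3 groups, 36 groups of values in all. Chance flags about 5% of such groups. Day 1 AMI replicate 4 lay far below the other day 1 hearts in *Lgals1*, with 119 CPM and 318 TPM. Day 7 AMI replicate 1 lay far above the other day 7 hearts in *Lgals1*, with 1060 TPM. Sham replicate 2 lay far above the other sham hearts in *Lgals4*, with 97.4 TPM, and was the sham heart with the highest erythroid marker sum. Sham replicate 1 lay far below the other sham hearts in *Lgals8* TPM, with 20.3 TPM, whereas its 44.0 CPM lay among them.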

How the results depend on the processing

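With TMM scaling the median log2 FC of all genes was near 0, and limma on log2(TPM + 1), limma on log2(TPM + 0.1) and edgeR with library sizes alone moved that median to 0.23, 0.31 and 0.26 at day 1 against sham, 0.44, 0.57 and 0.43 at day 7 against sham, and 0.18, 0.25 and 0.15 at day 7 against day 1. With library sizes alone the genes called higher and lower were 1764 and 217 at day 1 against sham, 3633 and 318 at day 7 against sham and 1626 and 293 at day 7 against day 1, where TMM scaling gave 1192 and 456, 2346 and 900, and 1308 and 411. The calls of *Lgals3*, *Lgals4* and *Lgals9* held in direction and threshold under each alternative that kept the FC minimum and without each heart. In the same 3 settings *Lgals8* turned to 0.21, 0.22 and 0.17 at day 1 and 0.60, 0.62 and 0.40 at day 7 against sham, and *Lgals1* became called at day 7 against sham (1.28, 1.28 and 1.17). *Lgals7* at day 1 against sham turned to 0.11, 0.40 and 0.24 in these settings, to 0.0092 and 0.029 with DESeq2 on the 12 libraries and on only the groups compared, to 0.014 without the filter and to 0.071 with the replicate block, and ranged from -0.32 to 0.86 with 1 heart left out. At day 7 against day 1 limma on log2(TPM + 1) gave 0.99 for *Lgals7* and 1 galectin called in place of 2, *Lgals7* included.

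Without an FC minimum 17, 18 and 14 partners and 9, 12 and 5 enzymes were called in the comparisons of day 1 with sham, day 7 with sham and day 7 with day 1. The enzymes called were 2 at day 1 against sham with either limma fit or library sizes alone, 6, 10 and 6 at day 7 against sham with those settings in the order above, and 1 at day 7 against day 1 with limma on log2(TPM + 0.1). Limma on log2(TPM + 1) called 4 partners at day 7 against day 1. With 1 heart left out, 1 to 2 enzymes were called at day 7 against sham and 4 to 7 partners at day 7 against day 1, *Lgals8* ranged from -0.036 to 0.032 at day 7 against sham, *Lgals1* from -0.19 (without day 7 replicate 1; -0.04 without day 1 replicate 4) to 0.27 at day 7 against day 1, and the difference of *Lgals3* and *Lgals1* between the AMI groups from -0.013 to 0.30. The cause of these shifts was not tested. Hearts with the same replicate number are different mice and their deviations from the group means correlated at -0.24 to 0.23 over 12 pairs, so the numbers were not taken to pair the hearts. The replicate block gave 2, 4 and 2 galectins called, *Lgals7* included, and 2 enzymes at day 7 against sham, and changed no call of a galectin.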
